A study of Mus musculus with 6 samples.

Results

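Gadd45g, Cdkn1a, Btg1, Btg2, Trp53inp1 and Ier2 are 6 genes of growth arrest and the early transcriptional response, read here from white fat exposed to a β3-adrenergic agonist. They were chosen by name with their measured ratios between the 2 pools of this study already known, so those ratios are a description and were not tested as support. They are 6 of the 13409 genes named on the array, and all 6 were among the 12633 genes with enough values to be fitted. Each is represented by 1 probe, so no gene could be checked with a second one.

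The study took epididymal fat from 12-week-old male C57BL/6J mice 3 hr after an injection of CL-316,243, at 1 mg/kg body weight, or of saline. The labels spell the agonist with another number in their descriptions, and the name in their titles is used here. RNA of 6 mice per treatment was combined in equal amounts into 1 pool, and both pools were hybridised together on each of 6 two-colour arrays. Arrays 4, 5 and 6 carried the CL-316,243 pool in channel 2, and arrays 1, 2 and 3 carried it in channel 1. The arrays therefore repeat the same 2 pools: every p-value below measures the spread between arrays, and the spread between mice is unknown.

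Each value is a normalised log ratio of both channels, taken as log2, and no intensities were available here, so a ratio gives no level and the labelled tissue could not be checked against the level of its markers. The sources used here do not name the numerator pool. "Higher" and "lower" below refer to the pool in the numerator, and every direction turns if that pool is saline. The columns are empty only at their ends, and array rows did not correspond as deposited (Spearman rho -0.03 to 0.03 between arrays). Each column was first placed on probe numbers by allowing for lost spots, which kept 62.1% of the probe numbers on array 2 and 91.5% to 99.8% on the other arrays. After placement rho averaged 0.28 (0.09 to 0.42) between arrays of the same orientation. Between arrays of opposite orientation it averaged 0.11 (-0.02 to 0.175). Since the placement looks for agreement between arrays, it also increases that agreement. Every result below rests on it: with rows as deposited limma called 0 of 13409 genes (489 at an unadjusted p under 0.05), and the 6 genes' mean ratios lay between -0.19 (Trp53inp1) and 1.54 (Gadd45g), 5 of them under 0.39 in size.

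Growth arrest genes hold cells outside division through separate proteins. Gadd45g encodes a small acidic protein of the Gadd45 family, which binds the kinase Map3k4 and thereby switches on p38 and JNK, and in mouse brown fat the gene is known to be induced by cold. Cdkn1a encodes p21, the inhibitor of cyclin-dependent kinases that p53 induces. Btg1 and Btg2 encode antiproliferative proteins that recruit the CCR4-NOT deadenylase to messenger RNAs, Trp53inp1 encodes a p53-induced stress protein that also takes part in autophagy, and Ier2 is an immediate early gene for a nuclear protein. The β3-adrenergic receptor of fat cells raises cyclic AMP, which activates protein kinase A and, through it, the transcription factor CREB, known for binding the cyclic AMP response element TGACGTCA.

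Promoter windows of the genes are shown, each with 250 bases before and 50 from the transcription start, from RefSeq on GRCm38.p6. The genes were chosen with their ratios known, so the same direction of 5 of the 6 says nothing about shared sequences. Of the 6 genes 4 had a window: Gadd45g, Cdkn1a, Btg1 and Btg2. Capitals mark TGACGTCA or its 5-base core TGACG (on the other strand CGTCA), the TATA box sequence TATAAA, and in Cdkn1a a match to the p53 tandem decamer.
Btg2, chr1:134079106-134079405, minus strand: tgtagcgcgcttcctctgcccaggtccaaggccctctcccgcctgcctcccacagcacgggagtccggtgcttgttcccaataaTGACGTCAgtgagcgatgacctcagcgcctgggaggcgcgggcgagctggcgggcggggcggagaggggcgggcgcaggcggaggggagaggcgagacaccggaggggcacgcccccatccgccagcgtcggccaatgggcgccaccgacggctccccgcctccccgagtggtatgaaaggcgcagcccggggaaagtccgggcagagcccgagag
Btg1, chr10:96616751-96617050, plus strand: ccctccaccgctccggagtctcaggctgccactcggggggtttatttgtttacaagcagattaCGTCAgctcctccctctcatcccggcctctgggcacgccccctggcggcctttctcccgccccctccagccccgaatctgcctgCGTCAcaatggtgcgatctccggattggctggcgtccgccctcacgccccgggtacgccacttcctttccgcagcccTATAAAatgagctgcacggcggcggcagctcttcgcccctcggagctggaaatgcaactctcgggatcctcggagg
Gadd45g, chr13:51846425-51846724, plus strand: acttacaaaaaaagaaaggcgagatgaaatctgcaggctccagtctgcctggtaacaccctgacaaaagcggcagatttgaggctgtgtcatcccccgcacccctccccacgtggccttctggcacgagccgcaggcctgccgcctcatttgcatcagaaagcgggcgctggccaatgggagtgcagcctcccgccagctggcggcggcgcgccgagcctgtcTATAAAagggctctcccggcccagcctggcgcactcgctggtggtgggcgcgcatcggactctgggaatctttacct
Cdkn1a, first of 2 windows, chr17:29090729-29091028, plus strand: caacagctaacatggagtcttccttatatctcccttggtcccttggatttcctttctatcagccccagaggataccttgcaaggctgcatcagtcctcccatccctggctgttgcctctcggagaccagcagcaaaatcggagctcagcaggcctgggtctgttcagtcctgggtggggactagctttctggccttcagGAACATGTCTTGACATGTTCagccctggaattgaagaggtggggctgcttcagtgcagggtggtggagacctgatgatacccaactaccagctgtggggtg

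The Btg2 window holds TGACGTCA from 166 to 159 bases before the start, a sequence found in 1.79% of the 32851 windows in the table on either strand. The Btg1 window holds the core alone, as CGTCA from 187 to 183 and again from 103 to 99 bases before the start. The core occurs in 20.8% of all windows, which include every window with the full element. Neither the Gadd45g window nor either Cdkn1a window holds these letters. TATAAA stands 27 to 22 bases before the Gadd45g start and 26 to 21 before the Btg1 start, against 13.6% of all windows with a match anywhere. CCAAT occurs on either strand in the windows of Gadd45g, Btg1 and Btg2, and in 37.4% of all windows.

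The first Cdkn1a window holds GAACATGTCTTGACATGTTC, from 51 to 32 bases before its start, which differs from the p53 tandem decamer at 1 position. Such a match, with at most 1 mismatch on either strand, occurs in 0.0548% of all windows. The second Cdkn1a window, chr17:29093519-29093818, holds none of the sequences searched. The CArG box of serum response genes, present in 1.63% of all windows, occurs in none of the 5 windows. The p53 search was set after the sequences had been seen, and a match describes letters in the window and not a site in use.

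Gadd45g, the Gadd45 family member, had ratios of 2.08 and 2.11 on arrays 5 and 6, with the CL-316,243 pool in channel 2, and 2.59 and 1.67 on arrays 1 and 3, with that pool in channel 1. Its spots on arrays 2 and 4 could not be placed with a posterior of at least 0.95. All 4 values were high and the orientations overlapped. The placement favours values that agree between arrays, so the likeness of these 4 values rests in part on it. With the 6 probes given no weight in the placement, the gene was placed on arrays 1, 3 and 6 only and could not be fitted. The fitted mean was 2.11 ± 0.17 (SE, n = 4 arrays), a 4.33-fold difference between the pools. Only 13 of the 12633 genes had a higher ratio. When positions with a posterior of at least 0.5 were accepted, the likeliest values of -0.26 on array 2 and 0.77 on array 4 joined, and the mean became 1.49 and no longer passed the threshold.

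Cdkn1a, the p21 gene, had ratios of 2.66, 1.60 and 0.40 on arrays 4, 5 and 6, with the CL-316,243 pool in channel 2, and 1.30 and 1.39 on arrays 1 and 3, with it in channel 1. Array 4 was the highest and array 6 stood lowest, so the values in channel 2 enclosed both values in channel 1. On array 6 the gene lay at the 86.1st percentile of all placed probes, and on the other 4 arrays between the 99.1st and the 99.8th. The fitted mean was 1.45 ± 0.27 (SE, n = 5 arrays), or 2.73-fold, with the widest spread of the 6 genes (SD 0.81).

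Btg2 had ratios of 0.92, 1.24 and 1.75 on arrays 4, 5 and 6, with the CL-316,243 pool in channel 2, and 1.26 and 0.70 on arrays 1 and 3, with it in channel 1. The orientations overlapped, array 6 was the highest and array 3 the lowest. Its fitted mean was 1.14 ± 0.16 (SE, n = 5 arrays), or 2.21-fold.

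Btg1, the other antiproliferative gene of the family, was placed on every array, at 0.53, 1.09 and 0.85 on arrays 4, 5 and 6, with the CL-316,243 pool in channel 2, and 0.78, 0.67 and 0.49 on arrays 1, 2 and 3, with it in channel 1. No array stood apart, and the orientations overlapped. The fitted mean was 0.73 ± 0.11 (SE, n = 6 arrays), or 1.66-fold, the smallest of the 6 in size, and 201 genes had a higher ratio. Btg1 lay below Btg2 on all 5 arrays that placed both, by a mean of 0.43 (SD 0.30).

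Trp53inp1 was the one gene of the 6 with negative ratios. It read -1.81, -1.51 and -1.31 on arrays 4, 5 and 6, with the CL-316,243 pool in channel 2, and -1.30, -1.18 and -0.85 on arrays 1, 2 and 3, with it in channel 1. Every value in channel 2 was lower than every value in channel 1, with arrays 6 and 1 close together, so the orientations did not overlap, and all 6 values were negative. The fitted mean was -1.33 ± 0.11 (SE, n = 6 arrays), a 2.51-fold difference, and 6 of the 12633 genes had a lower ratio.

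Ier2 read 1.37, 0.67 and 1.02 on arrays 4, 5 and 6, with the CL-316,243 pool in channel 2, and 1.89, 2.43 and 0.50 on arrays 1, 2 and 3, with it in channel 1. Array 2 was the highest and array 3 the lowest, so the values in channel 1 spanned those in channel 2. The fitted mean was 1.31 ± 0.22 (SE, n = 6 arrays), or 2.48-fold, with an SD of 0.74. In bulk tissue a change in the share of a cell type and a change of RNA per cell cannot be told apart for any of these genes.

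**Figure D1:**
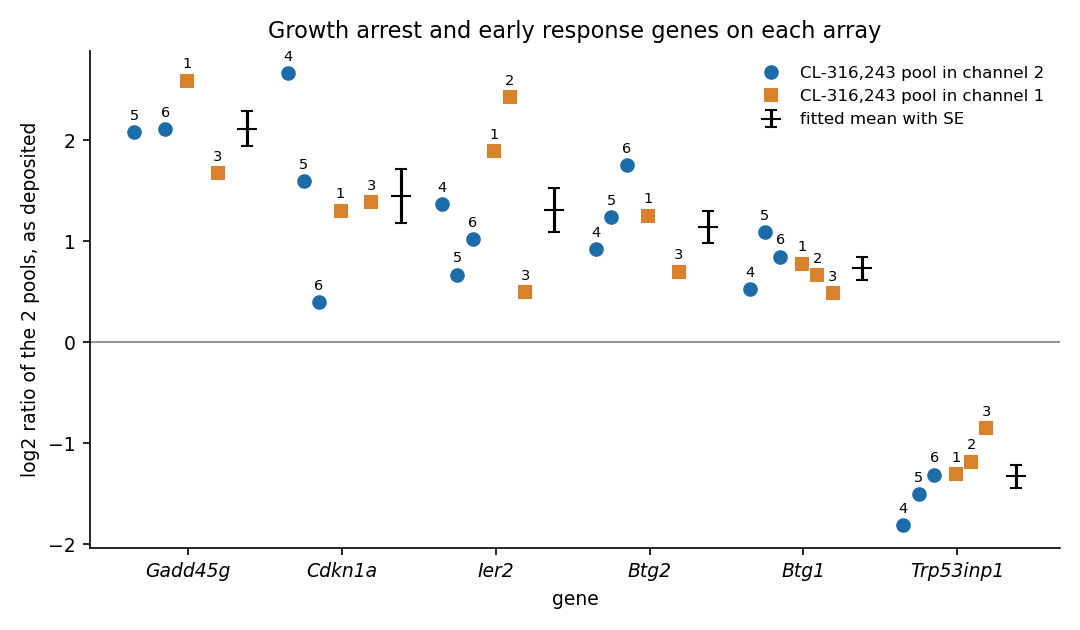
Log2 ratio of the 2 pools (vertical axis) for each of the 6 genes (horizontal axis), 1 point per array with its number. Circles are arrays with the CL-316,243 pool in channel 2, squares arrays with it in channel 1, and bars give the fitted mean with its SE. Trp53inp1 lies below 0 on all 6 arrays and the other 5 genes above 0 on every array that placed them, with the widest spread in Cdkn1a.

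In the limma fit over all genes with Benjamini-Hochberg adjustment, all 6 genes passed an adjusted p of 0.05, against 3.28% of the 12633 genes tested (414 genes). Of the 6, 5 were higher, against 1.96% of all genes (248), and 1 was lower, against 1.31% (166). These genes were selected on this contrast, so nothing is read from that count. The calls of single genes depended on single arrays. Without array 5 neither Cdkn1a (1.44) nor Btg1 (0.67) passed, and without array 1 Ier2 (1.24) did not pass. Gadd45g could only be refitted without array 2 or array 4, from which it has no value, and Cdkn1a and Btg2 could not be refitted without array 1 or array 3. Trp53inp1 passed without each array in turn (-1.39 to -1.26).

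Among placed values the order of the 6 genes within arrays varied except at its ends. Gadd45g had the highest ratio on each of the 4 arrays that placed it, by a mean of 0.88 over Btg2 (SD 0.40) and 1.09 over Ier2 (SD 0.29). Its likeliest values on the arrays left out were not the highest. They were 0.77 on array 4, below Cdkn1a, Ier2 and Btg2, and -0.26 on array 2, below Ier2 and Btg1. Trp53inp1 had the lowest ratio on all 6 arrays. Between these ends Btg2 lay above Btg1 on every shared array, as given above. The other pairs differed by less than the SD of their differences: Cdkn1a exceeded Ier2 on 3 of 5 shared arrays (mean difference 0.38, SD 0.91), and Btg2 exceeded Ier2 on 3 of 5 (0.08, SD 0.61). Cdkn1a exceeded Btg2 on 4 of 5, by 0.30 (SD 1.12), and Btg1 on 4 of 5, by 0.72 (SD 0.93). Btg1 exceeded Ier2 on 1 of 6 arrays (-0.58, SD 0.80).

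Dye orientation was tested as a separate term of the same fit, though the genes were chosen on ratios over all 6 arrays. For Cdkn1a and Btg2, with 3 arrays against 2, the dye term is not independent of the mean ratio. The placement looks for agreement between arrays, also across orientations, and can make such differences smaller. None of the 6 genes passed the dye term (0 of 6 also at an unadjusted p under 0.05), against 0.00792% of all genes (1 of 12633 called by limma, 1344 at an unadjusted p under 0.05). The 1 gene was Theg, at -2.98 on arrays 4 to 6 and 4.09 on arrays 1 to 3, named here after its values were seen. Trp53inp1 averaged -1.54 on arrays 4 to 6 and -1.11 on arrays 1 to 3, a difference of -0.43 ± 0.23 (SE, limma adjusted p = 0.513). Ier2 averaged 1.02 on arrays 4 to 6 and 1.61 on arrays 1 to 3, a difference of -0.58 ± 0.43 (SE, limma adjusted p = 0.631). Btg2 averaged 1.31 on arrays 4 to 6 and 0.98 on arrays 1 and 3, which differed by 0.33 ± 0.31 (SE, limma adjusted p = 0.711). For the other 3 genes the difference lay between -0.04 and 0.21, with adjusted p-values of 0.787 to 0.977 in limma. With 2 or 3 arrays an orientation, the lack of a call does not show that the orientations were alike. The size of difference that could be detected was not computed.

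The relatives of these genes, and the genes they act with, were read from lists chosen by role, with earlier results of these data known. The counts of these lists are therefore a description, and nothing is read from a share above that of all genes. Over all 9 lists, without the 6 genes, 128 genes were tested: 7 were higher (5.47%) and 3 were lower (2.34%), against 1.96% and 1.31% of all genes. At an unadjusted p under 0.05 the fit held 42 of the 128, against 18.4% of all genes tested (2329), the share against which the same counts of single lists below are to be read. Their median ratio was 0.02, against -0.01 for all genes tested. Of the 10 calls 6 were in the list of early response genes. The counts moved with single arrays: 2 of 60 listed genes passed without array 1 (Egr2 and Jund), 2 of 113 without array 5 (Ier3 and Jund) and 3 of 113 without array 6 (Gadd45a, Ier3 and Jund). The arrays with the CL-316,243 pool in channel 2, fitted alone, left Phlda3, Map3k4 and Junb without a call among the 10, and those with it in channel 1 left all but Egr2 and Jund.

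In the Gadd45 family Gadd45a, induced by p53 and DNA damage, went the other way from Gadd45g. It read -1.24, -1.48 and -0.45 on arrays 4, 5 and 6, with the CL-316,243 pool in channel 2, and -0.38 and -1.01 on arrays 1 and 3, with it in channel 1. All 5 values were negative, the orientations overlapped, and the fitted mean of -0.88 ± 0.18 passed the test (SE, limma adjusted p = 0.032). It no longer passed without array 4 (-0.83, limma adjusted p = 0.0928) or array 5 (-0.77, limma adjusted p = 0.124), nor at a placement posterior of at least 0.99 (-0.83, limma adjusted p = 0.0648) or 0.5 (-0.63, limma adjusted p = 0.198). Gadd45b had too few placed values.

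Of the other Btg and Tob genes, which share the antiproliferative domain, none of 4 passed the limma test (3 had an unadjusted p under 0.05). Tob1 had the largest ratio among them, 0.51 ± 0.15 (SE, limma adjusted p = 0.102), and was positive on 5 of 5 arrays. Tob2 read 0.32, Btg3 0.31 and Btg4 0.20, and Tob2 and Btg4 were positive on 6 of 6 arrays. Btg3 averaged -0.13 on arrays 4 to 6, with the CL-316,243 pool in channel 2, and 0.76 on arrays 1 to 3, where that pool was in channel 1.

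Among the other inhibitors of cyclin-dependent kinases, 0 of 6 passed in limma, 1 of them at an unadjusted p under 0.05, and the median was -0.10. Cdkn1c, the p57 gene, had the largest ratio in size, -0.38 (limma adjusted p = 0.104). Cdkn2b, the p15 gene, read -0.16. Cdkn2a had too few placed values.

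**Figure D2:**
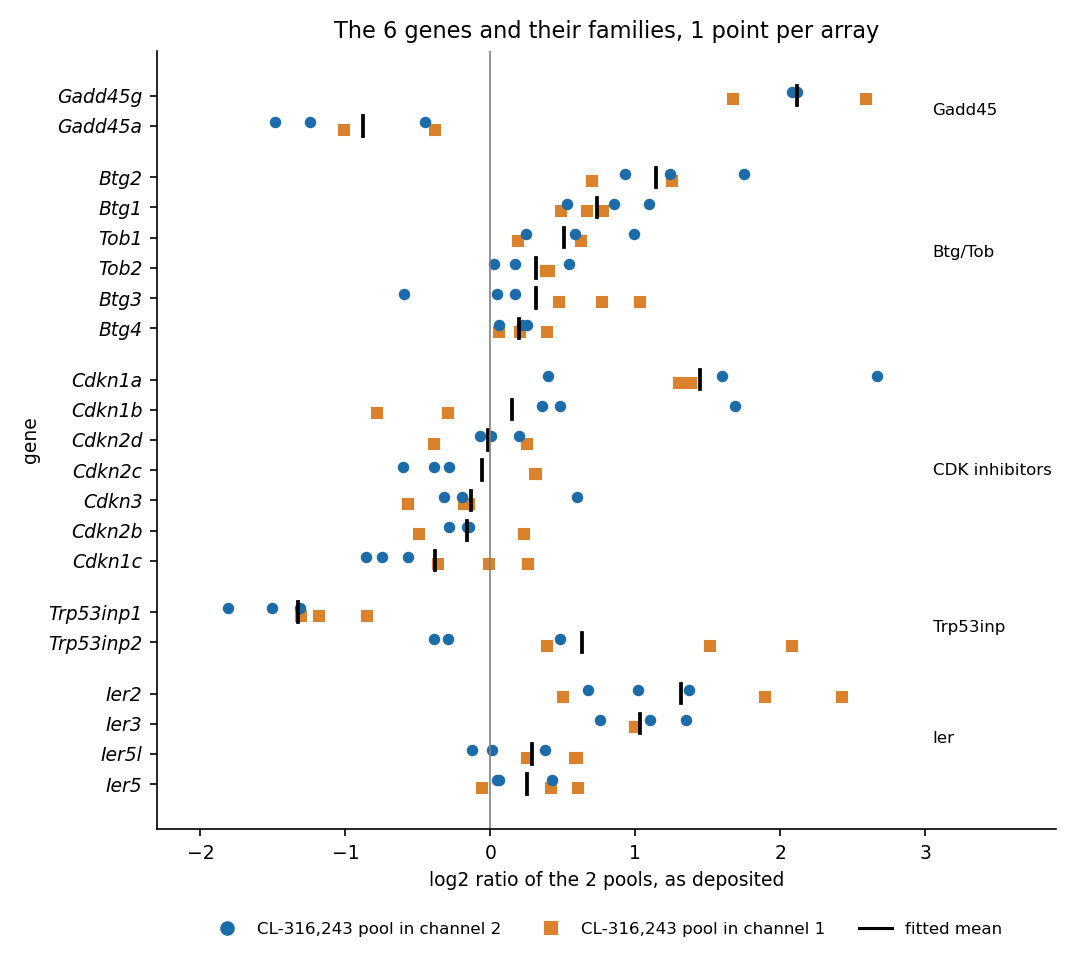
Log2 ratio of the 2 pools (horizontal axis) for the 6 genes and their relatives (vertical axis), 1 point per array. Circles are arrays with the CL-316,243 pool in channel 2, squares arrays with it in channel 1, and black bars fitted means. Gadd45g and Gadd45a lie on opposite sides of 0, and the Btg and Tob genes have fitted means above 0, down to 0.20 for Btg4.

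Genes of the p53 pathway other than the 6 gave 1 higher and 1 lower of 22 tested, with a median of 0.03, and 8 of the 22 had an unadjusted p under 0.05. The lower gene was Gadd45a. The higher one was Phlda3, which encodes a p53-induced inhibitor of Akt, at 0.65, 0.90 and 0.63 on arrays 4, 5 and 6, with the CL-316,243 pool in channel 2, and 0.49, 0.12 and 0.13 on arrays 1, 2 and 3, with it in channel 1. All 6 values were positive and every value in channel 2 was above those in channel 1. The mean of 0.49 ± 0.11 (SE, limma adjusted p = 0.038) lost its call without array 1, 2, 4, 5 or 6 (0.42 to 0.52), and kept it without array 3. Trp53inp2, the paralogue of Trp53inp1 that works in autophagy, read 0.63 ± 0.20 (SE, limma adjusted p = 0.132), with positive values on 4 of 6 arrays, and passed without array 2 (0.87, limma adjusted p = 0.0236). Its mean was -0.07 on arrays 4 to 6, with the CL-316,243 pool in channel 2, and 1.33 on arrays 1 to 3, where that pool was in channel 1.

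The kinases between Gadd45 proteins and p38 or JNK gave 0 higher and 1 lower of 11, with a median of 0.07. In the fit 4 of the 11 had an unadjusted p under 0.05. The lower one was Map3k4, the kinase that Gadd45 proteins bind. It read -0.45, -0.45 and -0.43 on arrays 4, 5 and 6, with the CL-316,243 pool in channel 2, and -0.75, -0.57 and -0.40 on arrays 1, 2 and 3, with it in channel 1. All 6 values were negative and the orientations overlapped, with a mean of -0.51 ± 0.10 (SE, limma adjusted p = 0.025). The call was lost without array 1, 4, 5 or 6 (-0.51 to -0.47, limma adjusted p = 0.0588 to 0.103). Mapk8, which encodes JNK1, read 0.44 (limma adjusted p = 0.443) and averaged 1.18 on arrays 4 to 6, with the CL-316,243 pool in channel 2, and -0.30 on arrays 1 and 3, where that pool was in channel 1.

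The CCR4-NOT deadenylase and the other partners of Btg proteins gave 0 calls among 11 genes in limma, 1 at an unadjusted p under 0.05, with a median of -0.01. The catalytic subunit gene Cnot6l had the largest ratio in size, -0.50 (limma adjusted p = 0.156), followed by Pabpc1 at -0.32, the gene of a poly(A)-binding protein. The partners of Trp53inp1 and the autophagy genes gave 0 calls among 12 in limma, 4 at an unadjusted p under 0.05, with a median of 0.13. Trp53inp2, above, had the largest ratio, and Atg12, a conjugation gene of autophagy, read -0.53 (limma adjusted p = 0.09). Without array 2 limma called 1 gene of this list, Trp53inp2.

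The early response genes held the most calls: 6 of 27 were higher (22.2%) and 0 lower, against 1.96% and 1.31% of all genes. Their median was 0.21, and 20 of the 27 ratios were positive. In the fit 12 of the 27 had an unadjusted p under 0.05. Without a call, Crem read 1.05 and Klf4 0.56, while Egr1 and Nr4a1 each read 0.10. Dusp1 read -0.05, Egr3 -0.11, Atf3 -0.24 and Nr4a3 -0.31, also without a call. Fos had too few placed values. Ier3, the relative of Ier2 by name that protects cells from death, read 1.10, 0.76 and 1.35 on arrays 4, 5 and 6, with the CL-316,243 pool in channel 2, and 1.00 and 1.00 on arrays 1 and 3, with it in channel 1. No array stood apart, and the mean was 1.03 ± 0.13 (SE, limma adjusted p = 0.004). The transcription factor gene Egr2 averaged 1.70 ± 0.20 (SE, limma adjusted p = 0.003) and Jund 1.33 ± 0.18 (SE, limma adjusted p = 0.004). These early factors bind DNA as zinc finger and AP-1 proteins.

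Junb averaged 1.13 (limma adjusted p = 0.037) and Jun 0.88 (limma adjusted p = 0.038), each on 4 arrays, and both encode AP-1 subunits. Junb lost its call at a placement posterior of at least 0.5 (limma adjusted p = 0.0588) and in each orientation alone, at 0.96 in channel 2 (limma adjusted p = 0.0818) and 1.30 in channel 1 (limma adjusted p = 0.164). Jun lost it without the dye term (limma adjusted p = 0.0612) and with channel 1 alone (0.53, limma adjusted p = 0.426). Myc, a growth regulator, averaged 0.72 (limma adjusted p = 0.038), and its call was lost without array 4, 5 or 6 (0.68 to 0.76), at a placement posterior of at least 0.5 (limma adjusted p = 0.0544) and with channel 1 alone (0.46, limma adjusted p = 0.494). Fosl1 had the largest ratio of the list without a call, 2.46 ± 0.79 (SE, limma adjusted p = 0.14), with a value of 7.64 on array 4 and 0.37 to 2.21 on the other 4 arrays. Without array 4 it read 1.45 and passed (limma adjusted p = 0.0452). Ier5 read 0.25 and Ier5l 0.28, neither of which passed. The list's count was 2 of 14 without array 1 (Egr2 and Jund) and 2 of 22 without array 5 or array 6 (Ier3 and Jund). Without array 3 it was 3 of 14, Egr2 and Jund higher and Zfp36l1, which encodes an RNA-binding protein, lower. Zfp36l1 is named because of this count.

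Genes of the cell cycle itself gave 1 call, too few to compare with the share of all genes (3.28%). The G1/S cyclins, their kinases and the pocket proteins gave 0 of 16 in limma, 4 at an unadjusted p under 0.05, with a median of 0.01. The pocket protein gene Rbl2 read -0.75 ± 0.25 (SE, limma adjusted p = 0.142), and passed without array 3 (-0.97, limma adjusted p = 0.0424, 1 of 3 genes of the list then tested). Cdk7, of the CDK-activating kinase, read 0.50 (limma adjusted p = 0.162). The genes of S phase to mitosis had a median of -0.08, and 5 of the 20 ratios were positive. At an unadjusted p under 0.05 the fit held 6 of the 20. After adjustment 1 of 20 was lower and 0 higher. It was Mcm6, a subunit of the replicative helicase, at -0.72 ± 0.13 (SE, limma adjusted p = 0.022), negative on 5 of 5 arrays. Its mean was -1.07 on arrays 4 to 6, with the CL-316,243 pool in channel 2, and -0.37 on arrays 1 and 3, where that pool was in channel 1 (limma adjusted p of the difference 0.42). Its call was lost without array 5 (-0.66) or array 6 (-0.70), and with channel 1 alone (limma adjusted p = 0.495). Mcm7 of the same helicase read -0.56 (limma adjusted p = 0.079), and passed without array 3 (-0.71, limma adjusted p = 0.0163).

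**Figure D3:**
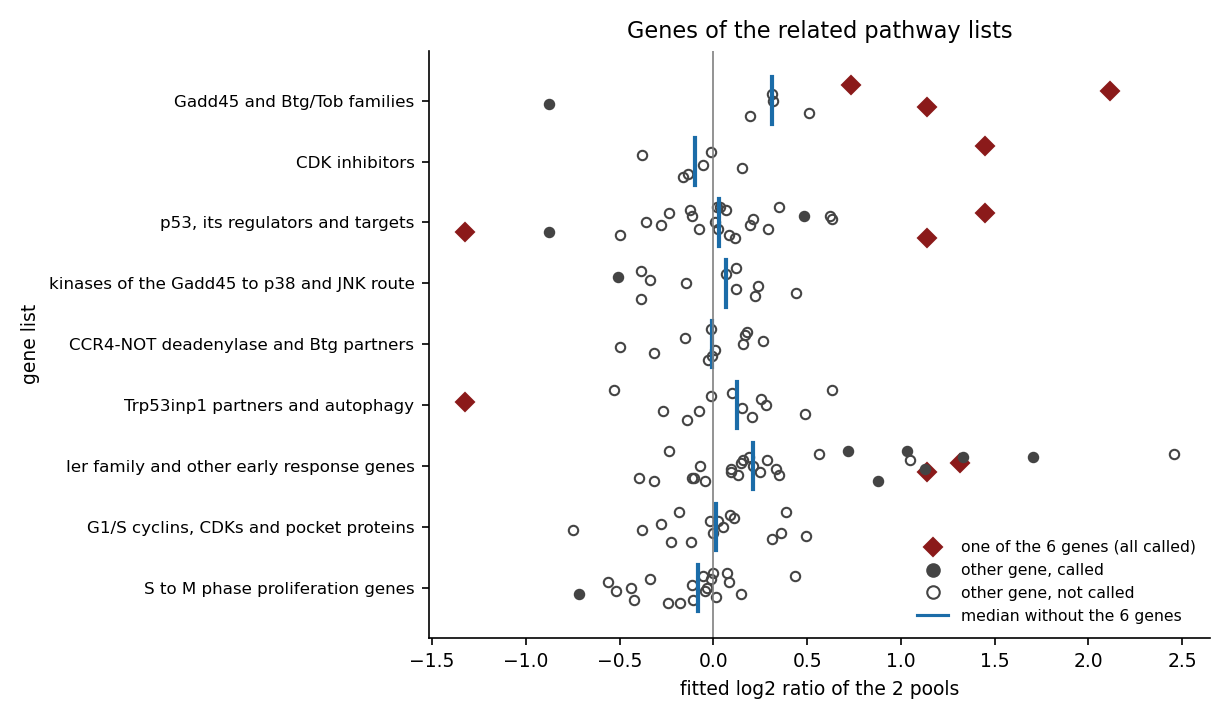
Fitted log2 ratio of the 2 pools (horizontal axis) for every tested gene of the 9 lists (vertical axis). Diamonds are the 6 genes, filled circles other called genes, open circles genes that were not called, and lines list medians without the 6 genes. Calls of other genes gather in the early response list, with 6 of the 10.

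The genes nearest to a member by root mean square difference over the 6 arrays were sought for the 3 genes placed on all of them, among 7606 genes. Psme1 (0.14) and Iqcf4 (0.17) lay nearest to Btg1. Gjd4 (0.36) and Ccl8 (0.41) lay nearest to Trp53inp1. Trpv2 (0.41) and Ugdh (0.45) lay nearest to Ier2. The 6 arrays share their pools, so this likeness describes array values only.

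Markers of other tissues and cell types were read beside these ratios. Of 7 tested markers of seminal vesicle and epididymis, glands next to this fat depot, 6 differed between the pools. Svs5 (-5.47), Svs2 (-4.98), Pate4 (-2.73), Svs6 (-2.17) and Svs4 (-1.16) were lower, and Serpina1f was higher (4.68). Lcn8 read 0.13. The part of such tissue in the ratios of the 6 genes was not tested. Adipocyte markers gave 0 calls of 8 in limma (4 at an unadjusted p under 0.05), from -0.47 for Pparg to 1.17 for Cidec. Macrophage markers gave 0 of 5, mesothelial markers 0 of 4 and lymphocyte markers 0 of 5 in limma, with 2, 2 and 0 at an unadjusted p under 0.05. Of 6 endothelial markers Cldn5, a tight junction gene, was higher (0.75) and none was lower, with 2 at an unadjusted p under 0.05. Only 2 of these 6 ratios were positive, with a median of -0.08, and Tek read -0.51 (limma adjusted p = 0.065).

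The ratios of the 6 genes were recomputed under the alternative settings of the placement and the fit. Leaving aside the rows as deposited, Cdkn1a ranged from 1.17 to 1.74 over 14 settings, Ier2 from 1.02 to 1.61 over 16 and Btg2 from 0.98 to 1.31 over 14. Btg1 ranged from 0.64 to 0.82 and Trp53inp1 from -1.54 to -1.11, over 16 settings each. Gadd45g ranged from 1.49 to 2.38 over 11. No setting that gave a ratio turned the sign of any of the 6. Settings that left a gene with too few arrays gave none and are not counted.

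**Figure D4:**
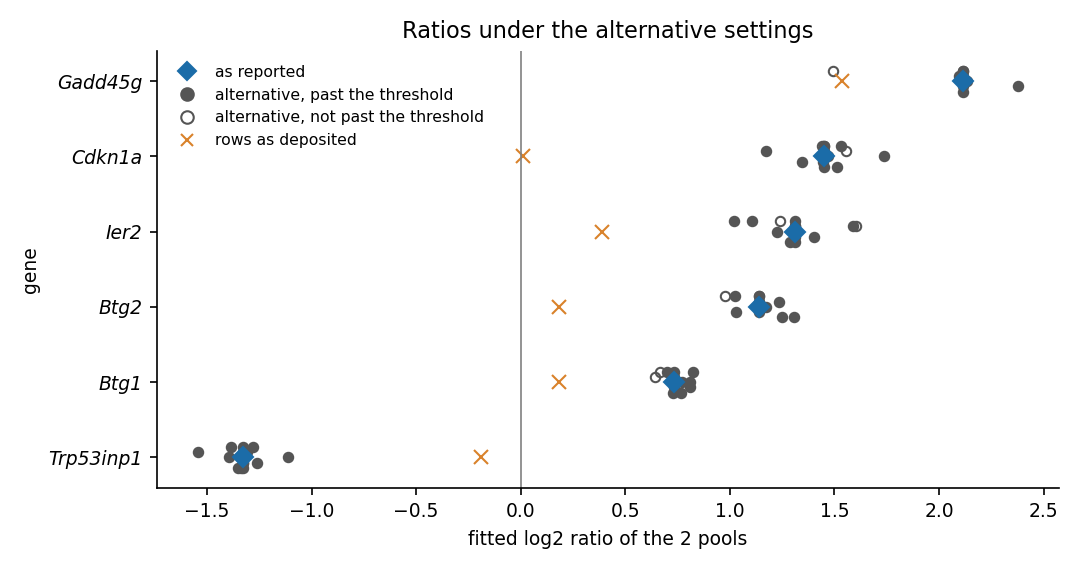
Fitted log2 ratio of the 2 pools (horizontal axis) for each of the 6 genes (vertical axis). The diamond is the value as reported, filled circles are alternatives past the limma threshold, open circles alternatives not past it, and crosses the rows as deposited. Trp53inp1 stays below 0 and the other genes above it, and the crosses of Cdkn1a, Btg1, Btg2, Trp53inp1 and Ier2 lie within 0.39 of 0.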

How the data were processed

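Total RNA pools of epididymal fat were measured on two-colour arrays. Per the labels' protocols, the authors scanned the slides, quantified them with QuantArray 3.0, scaled Cy5 to Cy3 and applied LOWESS; the deposited values are log ratios, taken as log2 (a natural log is possible). The sources used here do not state the numerator, the dye of each channel or the spot filters.

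Each column was placed on 19200 probe numbers with a hidden Markov model that allows only lost spots (normal scores clipped at 3, 3 rounds, a lost spot followed by another with probability 0.5, posterior at least 0.95). Of 7 first guesses tried on these data, that with the highest likelihood was kept. Its summed log-likelihood gain was 10486.1, close to the 10482.3 of the next guess. The values of the 6 genes under the other guesses were not compared. The platform annotation gives 1 symbol for 14711 probes, several for 6 and none for 4483. Probes of a gene were averaged.

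Genes with at least 2 arrays in each dye orientation were fitted over all genes with limma 3.58.1 (R 4.3.3; lmFit, eBayes), orientation coded as plus and minus 1, and Benjamini-Hochberg adjustment at 0.05. Placement and fit were tested on simulated data. For the placement, the simulated columns had the correlations found after placement, with runs of lost spots drawn at the same probability. The simulated losses began only among the early probe numbers, ahead of the probes of Btg2, Trp53inp1 and Cdkn1a. How well these probes are placed when spots are lost further on was therefore not tested. That simulation also does not show how much agreement the placement adds between unrelated columns.

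The genes and lists were chosen with earlier results of these data known. Named are the 6 genes, every called gene of the 9 lists, the 2 largest ratios in each list and the 2 nearest genes. Some family members are named beyond this rule (Tob2, Btg3, Btg4, Ier5, Ier5l), chosen after their values were seen. So are early response genes without a call (Crem, Klf4, Egr1, Nr4a1, Dusp1, Egr3, Atf3, Nr4a3). Alternatives were the posterior minimum, the rows as deposited, scaling, the dye term, 1 array or orientation left out and 1 probe per gene. The median of the arrays, which has no threshold test, was another. A placement in which the 6 probes had no weight was added after seeing the data. The number of arrays limits the precision.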

Additional observations from a re-analysis of the deposited data

Results flagged for a closer look

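Among the genes named, 2 had ratios of opposite sign in the 2 dye orientations on every array that placed them. Theg read -2.63, -2.99 and -3.32 on arrays 4, 5 and 6, with the CL-316,243 pool in channel 2, and 4.88, 3.86 and 3.53 on arrays 1, 2 and 3, where that pool was in channel 1. Its difference of -7.06 ± 0.34 passed the dye term of the fit (SE, limma adjusted p = 2.63e-05). Mapk8 read 2.48, 0.24 and 0.83 on arrays 4, 5 and 6, and -0.37 and -0.22 on arrays 1 and 3. Its difference of 1.48 ± 0.55 did not pass (SE, limma adjusted p = 0.423). Why the signs differ was not tested.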

How the results depend on the processing

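The ratios of the 6 genes kept their sign in all 93 values computed under the alternatives. With rows as deposited they moved by more than the spread between arrays, to 1.54 for Gadd45g, 0.0088 for Cdkn1a, 0.18 for Btg1, 0.18 for Btg2, -0.19 for Trp53inp1 and 0.39 for Ier2, and limma called 0 of 13409 genes (489 at an unadjusted p under 0.05) and 0 of 142 listed genes (3 at an unadjusted p under 0.05). In that setting Phlda3 (-0.0073), Ier3 (-0.18), Jund (-0.00088) and Myc (-0.059) changed sign. A posterior of at least 0.5 moved Gadd45g to 1.49. The threshold was passed in 73 of the values and missed in 14. The rest were medians of the arrays, which have no threshold test. The misses beyond those above and in the report were Cdkn1a with channel 2 alone (1.55) and Btg1 (0.64), Btg2 (0.98) and Ier2 (1.61) with channel 1 alone. Without 1 array at a time 118 to 359 genes were called, against 414 of 12633, but fewer genes could then be tested. The calls were 118 of 11621 genes without array 5, 149 of 7773 without array 1 and 359 of 7820 without array 3. The share without array 3 was above that of the main fit, so the lower count there is not a loss in share. Of the listed genes 2 to 10 were called, against 10 of 128, with 2 of 60 without array 1 and 7 of 60 without array 3. The arrays with the CL-316,243 pool in channel 2 alone called 247 genes, and those with it in channel 1 alone 71 genes and 2 listed genes. With the 6 probes given no weight in the placement, Gadd45g was placed on arrays 1, 3 and 6 only and was not fitted, and Btg1 lost array 4. The cause of these changes was not tested. No paired analysis was possible because the array numbers 1 to 6 do not repeat between the orientations. The shared hybridisation of 1 pool per treatment, the unnamed numerator and the absence of intensities limit every value.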
